A study of Mus musculus with 12 samples.

Results

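The Polycomb complex genes described here are Ezh1, Ezh2, Eed, Suz12, Bmi1, Ring1, Rnf2, Cbx7, Cbx8 and Asxl1. They were chosen by their symbol in the table of RNA-Seq counts, where each of the 10 matched 1 of the 41128 genes. The table holds 12 libraries of PreMegEs, the bone marrow progenitors with megakaryocyte and erythroid potential, in 4 groups of 3. All mice were C57BL/6 adults of 12 to 16 weeks, and the cells of 3 mice were pooled for every library. WT PreMegEs came from wild type mice. P2- and P2+ PreMegEs came from Runx1 P1-GFP::P2-hCD4/+ mice, a knock-in in which GFP reports the distal promoter of Runx1 (P1) and truncated human CD4 the proximal one (P2) from 1 allele, and they were sorted as hCD4- and hCD4+ cells. KO PreMegEs came from RUNX1C knockout mice, which lack the isoform made from P1, and like the WT cells they were not separated by P2 activity. No treatment was given to any group. The labels do not say whether the KO libraries were made together with the others.

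Polycomb proteins act in complexes that keep developmental genes silent through marks on histones. PRC2 methylates lysine 27 of histone H3, with Ezh2 or Ezh1 as the enzyme, Suz12 as the scaffold and Eed as the subunit that binds the finished mark. PRC1 attaches ubiquitin to histone H2A through Ring1 or Rnf2 (RING1B) paired with a PCGF protein such as Bmi1, and in its canonical form it reads the methyl mark with a CBX protein such as Cbx7 or Cbx8. Asxl1 is a cofactor of Bap1 in PR-DUB, the enzyme that takes ubiquitin off H2A again. In blood, Bmi1 and Ezh1 are known for roles in stem cell maintenance, and EZH2 and ASXL1 are recurrently mutated in myeloid disease.

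The libraries totalled between 10726098 and 14445026 counts, and a member had between 166 and 4303 counts in a library, so none of the 10 was near the limit of detection. Levels are given as CPM, the counts scaled to library size after TMM scaling of the library sizes, and differences as log2 fold changes with their standard error (SE). Groups were compared with edgeR's quasi-likelihood test, and a gene was called at a Benjamini-Hochberg adjusted p under 0.05 over all genes tested in that comparison. Shares of all genes are given at this adjusted threshold only, also where members are counted at an unadjusted p. The p-values measure the spread between pools of mice. In bulk libraries such as these, fewer cells of a type and less RNA per cell cannot be told apart. The summed level of 15 megakaryocyte genes was between 1091 and 1619 CPM in P2+ libraries and between 197 and 268 in P2- libraries, and that of 15 erythroid genes between 834 and 1075 in P2+ and between 3188 and 3737 in P2-, so the sorted groups stood apart in the markers of both lineages. The KO label could not be checked from the gene count. Runx1 was between 340 and 382 CPM in KO and between 358 and 388 in WT libraries, a count that takes in transcripts of both promoters. Immediate early genes stood apart in replicate 2 of both reporter groups, with up to 13210 CPM summed over 11 genes against a lowest value of 167 in P2- libraries.

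Ezh1 and Ring1, the enzymes of PRC2 and PRC1 that were lower in P2+ than in P2- PreMegEs, start in CpG-rich sequence, the kind of promoter at which Polycomb complexes themselves are known to bind. Their promoters are shown because they are the members that fell and whose window holds no annotated exon. Each line gives the 250 bases before the RefSeq start (GRCm38.p6), on the strand of the gene, and the capitals mark CpG dinucleotides. The Ezh1 window is chr11:101226464-101226713 on the minus strand and the Ring1 window is chr17:34024681-34024930 on the minus strand.
Ezh1: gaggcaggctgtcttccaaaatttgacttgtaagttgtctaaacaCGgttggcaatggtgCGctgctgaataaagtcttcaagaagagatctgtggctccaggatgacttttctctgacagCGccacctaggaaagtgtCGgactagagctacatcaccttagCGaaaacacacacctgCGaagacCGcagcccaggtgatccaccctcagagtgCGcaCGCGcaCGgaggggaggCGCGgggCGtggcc
Ring1: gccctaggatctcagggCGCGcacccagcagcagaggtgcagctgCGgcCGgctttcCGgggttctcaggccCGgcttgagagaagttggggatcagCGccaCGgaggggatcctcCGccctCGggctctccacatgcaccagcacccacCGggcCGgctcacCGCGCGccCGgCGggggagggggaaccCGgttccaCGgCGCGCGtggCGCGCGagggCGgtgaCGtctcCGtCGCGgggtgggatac
The Ezh1 window held 14 CpG and the Ring1 window 30, and both ended in a dense run of them next to the start. The ratio of observed to expected CpG was 0.738 for Ezh1 and 0.89 for Ring1. Over the 10 members it ran from 0.598 for Asxl1 to 1.098 for Suz12 (median 0.814), against a median of 0.373 over 32817 promoter windows of the same length. On either strand, the letters TGTGGT of a RUNX site were found in the windows of Ezh2 and Asxl1 and in 14% of all windows, and TTCCCGC of an E2F site in those of Suz12 and Asxl1 and in 3.8% of all. The letters AGATAA of a GATA site were in none of the members' windows and in 10.0% of all. Ezh1, Ring1 and Cbx7, the members that fell, held none of these letters in their windows.

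Per length the members covered a wide range. The mean over the 12 libraries was highest for Suz12 at 52.0 RPKM, followed by Asxl1 at 40.5, Rnf2 at 36.5 and Bmi1 at 29.9. Ring1 at 10.8, Ezh2 at 10.1, Eed at 7.71 and Ezh1 at 6.32 RPKM followed, and Cbx8 at 5.58 and Cbx7 at 4.30 were lowest. In this order the ranges over the 12 libraries did not overlap between Suz12 and Asxl1, Rnf2 and Bmi1, Bmi1 and Ring1, or Ezh2 and Eed, and they overlapped between all other neighbours. The widest gap lay between Bmi1, whose lowest library was at 26.0 RPKM, and Ring1, whose highest was at 15.1. The core subunits of PRC2 were thus present at unequal levels, with Suz12 above both enzymes and Eed. The levels per length rest on the exonic length of all transcripts of a gene and on an aligner that does not split reads over junctions.

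Between paralogs, 1 gene led in each family in all 4 groups. Rnf2 made up between 73.9% and 82.2% (group means) of the RPKM of the RING ligases, and Ezh2 between 57.4% and 67.5% of that of the PRC2 methyltransferases. Bmi1 held between 56.7% and 62.9% of the RPKM of the 6 PCGF genes, and Asxl1 between 71.9% and 76.1% of that of the ASXL genes, with no read on Asxl3 in any library. Among the 5 CBX readers neither member led: Cbx6 held between 34.7% and 43.0%, Cbx8 between 11.1% and 12.4% and Cbx7 between 6.44% and 10.4%.

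**Figure D1:**
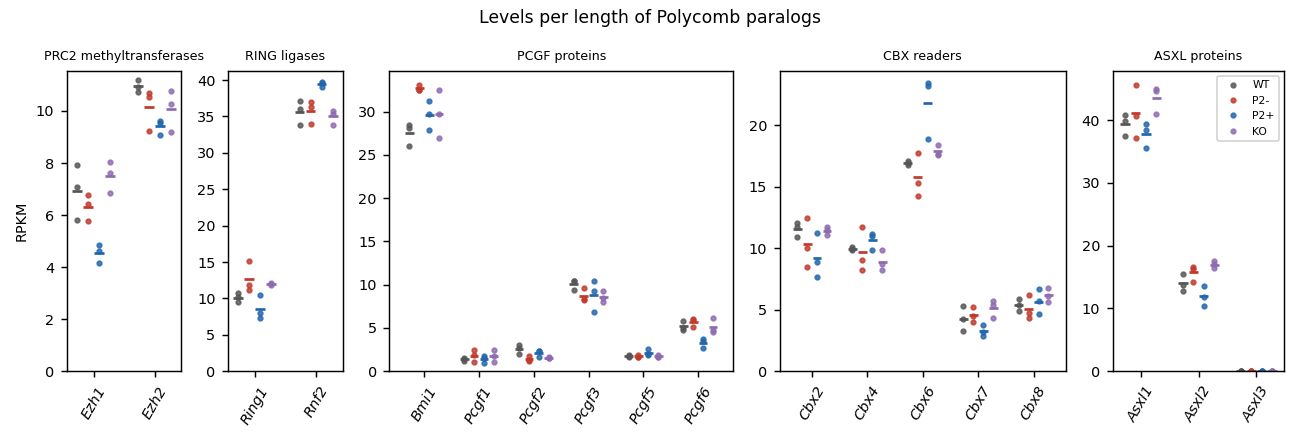
Levels in RPKM (linear axes that start at 0, scaled separately for each family) of the paralogs of 5 Polycomb families in WT, P2-, P2+ and KO PreMegEs. Points are libraries and bars are group means of 3. Ezh2 lies above Ezh1, Rnf2 above Ring1, Bmi1 above the other PCGF genes and Asxl1 above Asxl2 in every group.

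P2+ and P2- PreMegEs were compared to see how progenitors with and without activity of the proximal Runx1 promoter differ. Ezh1, Ring1 and Cbx7 fell in P2+ cells, by 28%, 31.9% and 28% on the linear scale, while Ezh2, Eed, Suz12, Bmi1, Rnf2, Cbx8 and Asxl1 did not pass the test. So 3 of the 10 members were lower and 0 were higher. Over all 12836 genes tested, 17.0% were lower and 20.1% higher. The 3 of 10 lower lay above that share and the 0 higher under it, and both are small counts beside such wide change. At an unadjusted p under 0.05 the counts were also 3 lower and 0 higher, and DESeq2 and edgeR's exact test gave the same 3 and 0. The share of all genes at an unadjusted p cannot be under the 37.1% that passed in either direction at the adjusted p. No member changed by 2-fold or more, against 12.7% of all genes. The median log2 fold change of the members was -0.13.

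Ezh1, the PRC2 enzyme with the weaker methyltransferase activity, known from cells that divide little, was at 34.2, 31.0 and 36.0 CPM in the P2+ libraries. It was at 50.5, 42.8 and 47.8 CPM in the P2- libraries. All 3 P2+ libraries lay below all 3 P2- libraries. The log2 fold change of Ezh1 was -0.47 (SE 0.11, adjusted p = 0.008559, edgeR's quasi-likelihood test), and it remained called in each of 13 alternative fits, with an adjusted p of at most 0.03313. Ring1 and Cbx7 each lost their call in some of the same fits.

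Ring1, the less abundant of the H2A ligases, was at 26.0, 34.2 and 23.7 CPM in P2+ libraries and at 38.4, 49.0 and 36.1 CPM in P2- libraries. The groups did not overlap, but replicate 2 was the highest library of both and the gap between 34.2 and 36.1 CPM was narrow. The log2 fold change of Ring1 was -0.55 (SE 0.17, adjusted p = 0.031201, edgeR's quasi-likelihood test), the largest of any member. The call of Ring1 was lost when P2- replicate 1, P2- replicate 2, P2+ replicate 1 or P2+ replicate 3 was left out, with adjusted p of 0.05029, 0.09054, 0.1051 and 0.1097. It was kept without replicate 2 of both groups. With the replicate number as a block Ring1 was also called (-0.56, SE 0.10, adjusted p = 0.0002549, edgeR's quasi-likelihood test), in a fit that called 24.8% of all genes lower.

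Cbx7, a chromodomain reader of canonical PRC1 known for repressing the Ink4a/Arf locus, was at 20.9, 18.4 and 24.2 CPM in P2+ libraries and at 25.8, 28.9 and 33.9 CPM in P2- libraries. Again no P2+ library reached the lowest P2- library. The log2 fold change of Cbx7 was -0.47 (SE 0.15, adjusted p = 0.037408, edgeR's quasi-likelihood test). The call of Cbx7 was lost without P2- replicate 2 (adjusted p = 0.06126), P2- replicate 3 (0.1429), P2+ replicate 1 (0.1050) or P2+ replicate 2 (0.1108), and without replicate 2 of both groups (0.09655). With the replicate number as a block Cbx7 was called (-0.47, SE 0.12, adjusted p = 0.004366, edgeR's quasi-likelihood test), in the same fit that called 24.8% of all genes lower. Cdkn2a, the gene of Ink4a/Arf, had between 0 and 2 counts in each of the 12 libraries, at or under the limit of detection in every group, so that no difference could be seen.

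Rnf2, the main H2A ligase by level, lay the other way. It was at 161, 164 and 164 CPM in P2+ libraries against 153, 140.3 and 150.0 CPM in P2- libraries, without overlap. Its log2 fold change of 0.15 (SE 0.07) had an adjusted p of 0.117135 in edgeR's quasi-likelihood test. With the replicate number as a block it was 0.15 with an adjusted p of 0.04836 and passed, in a fit that called 25.9% of all genes higher and 24.8% lower.

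Bmi1 (log2 fold change -0.14, adjusted p = 0.162755, edgeR's quasi-likelihood test) was between 111 and 124 CPM in P2+ and between 129 and 132 CPM in P2- libraries, so its groups did not overlap although it did not pass. For the members that did not pass, the 95% confidence intervals bound the size of a difference that could have been missed. That of Ezh2 ran from -0.31 to 0.10 on the log2 scale and that of Suz12 from -0.26 to 0.20. The interval of Asxl1 ran from -0.32 to 0.09, that of Eed from -0.50 to 0.14 and that of Cbx8, the member with the fewest counts, from -0.28 to 0.59. Each of these intervals excluded a 2-fold change in either direction.

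**Figure D2:**
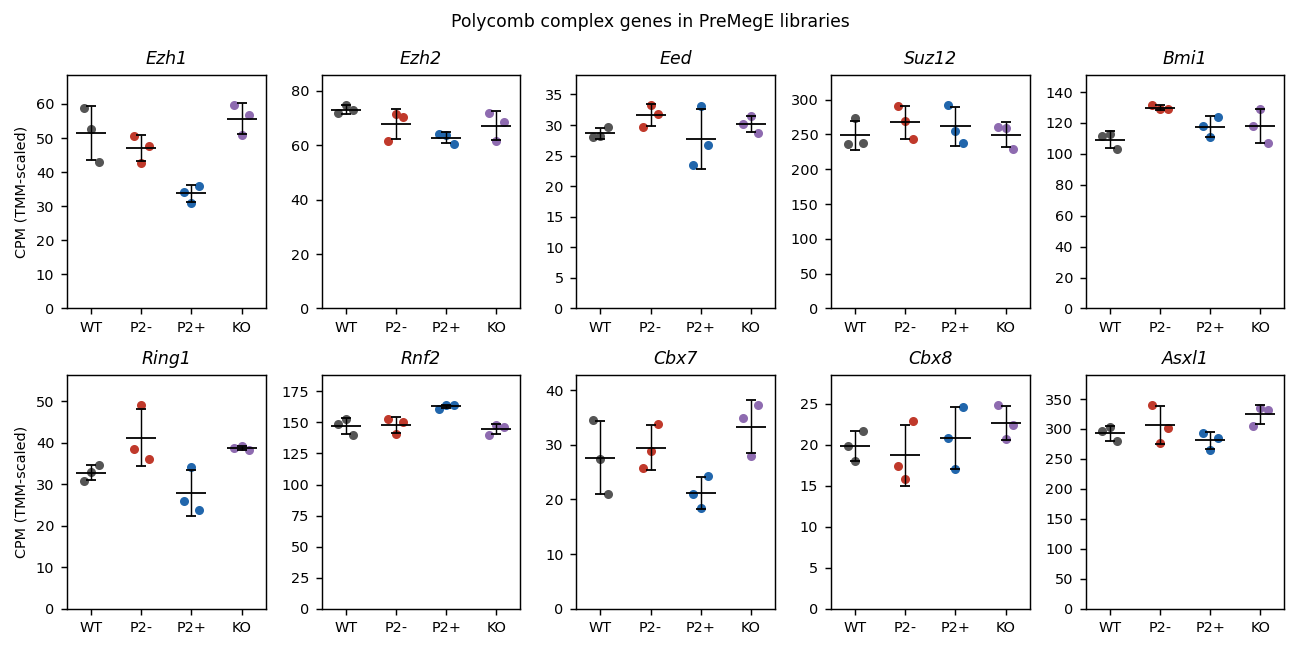
Level of each of the 10 Polycomb complex genes in CPM (linear axes from 0) in WT, P2-, P2+ and KO PreMegEs. Points are libraries, the wide bar is the mean of 3 and the error bars are the SD. Ezh1 lies between 31.0 and 36.0 CPM in P2+ libraries, under the lowest library of every other group (42.8 CPM).

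P2+ PreMegEs were also set against WT PreMegEs, which hold cells of both kinds. Ezh1 was the single member that passed, lower in P2+ cells with a log2 fold change of -0.61 (SE 0.12, adjusted p = 0.008274, edgeR's quasi-likelihood test). Of all 12941 genes tested, 7.07% were lower and 9.45% higher, and 3.84% passed with at least 2-fold, among which was no member. WT libraries had 58.9, 52.6 and 43.1 CPM of Ezh1, and even the lowest of them was above the highest P2+ library. Ezh1 kept its call in each of 13 alternative fits, with an adjusted p of at most 0.04888. The P2+ libraries are the same in both comparisons, so the lower Ezh1 against WT and against P2- cells is not seen in independent libraries.

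Ezh2 was between 60.6 and 64.1 CPM in P2+ and between 71.7 and 74.8 CPM in WT libraries. These groups did not overlap, and the log2 fold change of Ezh2 was -0.21 (SE 0.07) with an adjusted p of 0.077149 in edgeR's quasi-likelihood test, so it did not pass (unadjusted p 0.015989, from the same fit across all genes). Ring1 and Cbx7 had log2 fold changes of -0.22 and -0.38 against WT, with adjusted p of 0.340723 and 0.189672. No member was higher in P2+ than in WT cells, at an unadjusted p under 0.05 or in DESeq2 or edgeR's exact test either. Rnf2 came nearest, at 0.15 with an adjusted p of 0.191834, and its P2+ libraries again lay above all WT libraries (139.7 to 153 CPM). The log2 fold changes of Eed (-0.04), Suz12 (0.08), Bmi1 (0.11), Cbx8 (0.07) and Asxl1 (-0.05) had adjusted p of at least 0.368532.

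P2- PreMegEs differed from WT PreMegEs in Bmi1, the PCGF subunit known for stem cell self-renewal, which was higher. It was at 132, 129 and 129 CPM in P2- libraries and at 112, 113 and 103 CPM in WT libraries. The P2- libraries were close to each other (SD 1.39 CPM) and lay above every WT library. The log2 fold change of Bmi1 was 0.26 (SE 0.07, adjusted p = 0.031279, edgeR's quasi-likelihood test). The call was lost in 8 of 13 alternative fits, among them edgeR's exact test (0.0873) and those without WT replicate 1 (0.09089), WT replicate 2 (0.07623), WT replicate 3 (0.1010), P2- replicate 1 (0.0728) or P2- replicate 3 (0.07833). So 1 member was higher and 0 lower, where 6.85% of 12767 genes were higher and 9.60% lower. No member was lower at an unadjusted p under 0.05, nor in DESeq2 or the exact test, and none was among the 4.68% of genes that passed with 2-fold. Mean Bmi1 was 130 CPM in P2-, 118 in P2+ and 109 in WT PreMegEs. WT was thus the lowest group although it holds cells of both kinds, but P2+ overlapped WT and did not pass. P2- and P2+ cells both came from reporter mice, and the part of the reporter allele was not tested.

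Ring1 stood in the same direction as Bmi1, from 36.1 to 49.0 CPM in P2- and from 30.9 to 34.7 CPM in WT libraries. Its log2 fold change of 0.34 (SE 0.13) had an adjusted p of 0.106076 in edgeR's quasi-likelihood test and did not pass. Ezh1 was -0.12 and Cbx7 0.11 on the log2 scale, with intervals from -0.38 to 0.14 and from -0.29 to 0.50. Ezh2 (-0.10), Eed (0.15), Suz12 (0.11), Rnf2 (0.02), Cbx8 (-0.07) and Asxl1 (0.08) had adjusted p of at least 0.373075.

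No member passed between KO and WT PreMegEs, which were compared for the effect of losing RUNX1C. Among 12784 genes tested, 6.18% were higher and 8.76% lower, and 3.41% passed with 2-fold. At an unadjusted p under 0.05, 2 members were higher, Asxl1 and Ring1, and 0 were lower, and DESeq2 and edgeR's exact test called none. The share of all genes at this looser threshold cannot be under the 14.9% that passed in either direction at the adjusted p. Ring1 was at 38.7, 39.3 and 38.2 CPM in KO libraries, all above the highest WT library at 34.7 CPM, with a log2 fold change of 0.23 (SE 0.10, adjusted p = 0.136392, edgeR's quasi-likelihood test). Asxl1 was at 305, 335 and 332 CPM in KO against 296, 303 and 279 CPM in WT libraries, which did not overlap, with a log2 fold change of 0.14 (SE 0.06) and an adjusted p of 0.146331. Suz12 was the member with the smallest difference, 0.00 on the log2 scale with an interval from -0.15 to 0.15. Cbx7 differed by 0.26 with an adjusted p of 0.295930, and it passed when WT replicate 1 was left out (0.45, adjusted p 0.04709). For Ezh1 (0.11), Ezh2 (-0.13), Eed (0.07), Bmi1 (0.11), Rnf2 (-0.03) and Cbx8 (0.18) the adjusted p was at least 0.345317.

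**Figure D3:**
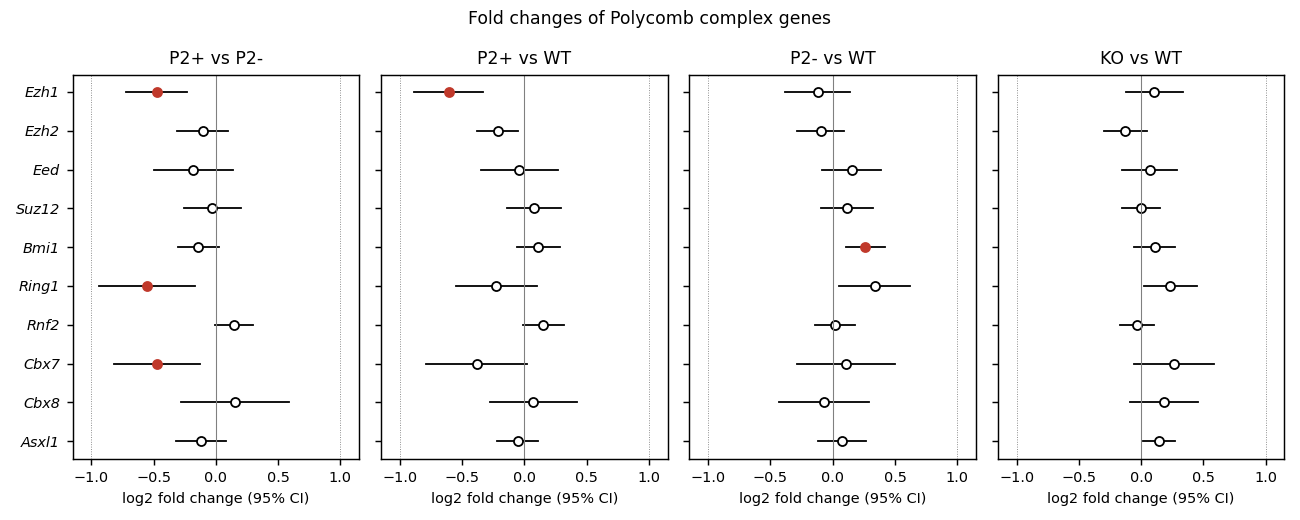
Log2 fold changes (x axis) of the 10 members in 4 comparisons, with 95% confidence intervals. Filled red points passed at an adjusted p under 0.05 and dotted lines mark 2-fold. The points that passed are Ezh1, Ring1 and Cbx7 in P2+ against P2-, Ezh1 in P2+ against WT and Bmi1 in P2- against WT, and none reaches a dotted line.

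The balance of the alternative PRC2 enzymes was read as the ratio of Ezh2 to Ezh1 reads per exonic base within each library, which does not depend on the scaling of the library. The ratio was 2.08, 2.29 and 1.88 in P2+ libraries, 1.36, 1.86 and 1.64 in P2- libraries, 1.35, 1.58 and 1.88 in WT libraries, and 1.34, 1.35 and 1.34 in KO libraries. Ezh2 was thus above Ezh1 in all 12 libraries. The P2+ libraries had the highest ratios, with no overlap with P2- libraries and with 1 WT library reaching the lowest of them. On the log2 scale P2+ exceeded P2- PreMegEs by 0.37 (1.05 ± 0.14 against 0.68 ± 0.23, SD, n = 3 each), with an exact two-sided permutation p of 0.1, the smallest that 3 against 3 allows. The test treats the libraries as unpaired. Each P2+ library was above the P2- library of its number, and 3 pairs are too few for a paired permutation test to pass. P2+ exceeded WT by 0.38 (WT 0.67 ± 0.24, exact permutation p = 0.2) and P2- exceeded WT by 0.01 (exact permutation p = 0.9). The KO libraries had the lowest ratios and hardly varied, and the KO mean was 0.24 below the WT mean on the log2 scale (exact permutation p = 0.1). Adjusted over the 4 comparisons no p can fall below 0.1, so none of these differences could pass. The higher ratio in P2+ cells comes with a called fall of Ezh1 and no called change of Ezh2.

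Ezh1, Cbx7 and Ring1 varied more between groups than the median gene, and the other 7 members less. The highest group mean was 1.65 times the lowest for Ezh1, 1.57 times for Cbx7 and 1.47 times for Ring1, and between 1.07 times (Suz12) and 1.21 times (Cbx8) for the others. The median of this ratio was 1.18 over the members and 1.345 over 13272 genes. For Ezh1, Cbx7, Ezh2, Eed, Ring1 and Asxl1, P2+ PreMegEs were the lowest group. Rnf2 alone was highest in P2+ PreMegEs.

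Across the 12 libraries the log2 CPM of Ezh1 and Cbx7 moved most closely together of all pairs of members (Pearson r = 0.855). Eed and Ring1 followed (r = 0.786), and Ring1 and Rnf2 went furthest in opposite directions (r = -0.72). Of 13272 genes, the ones most like Ezh1 were the noncoding 4930520O04Rik (r = 0.987), Pcmtd2 (r = 0.949) and Acot8 (r = 0.946). Among those most like Ring1 were Ppp1r15b (r = 0.965) and Trak1 (r = 0.948), and among those most like Ezh2 were Stx3 (r = 0.876) and Tmem136 (r = 0.856). These correlations describe 12 points that share 4 groups, reporter pools and library scaling, and they were picked from many.

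The members sit among 44 other subunits of Polycomb complexes and H3K27 demethylases, of which 43 were tested. Between P2+ and P2- PreMegEs 7 of the 43 rose and 6 fell, beside 20.1% and 17.0% of all genes, and the median log2 fold change was -0.02. The other PRC2 subunits are the histone-binding core proteins Rbbp4 and Rbbp7 and 6 accessory subunits, most of which are known for guiding the enzyme to chromatin. Of these 8, beside 20.1% of all genes higher and 17.0% lower, those that rose were Phf19 (0.78, SE 0.10), Mtf2 (0.40, SE 0.11) and Aebp2 (0.20, SE 0.07), and 0 fell. With the replicate block Rbbp4 was also higher (0.18, adjusted p = 0.02126 in edgeR's quasi-likelihood test) and Phf1 lower (-0.49, 0.0311). Phf1 shares 39.3% of its exonic length with Cuta on the opposite strand, and Rbbp4 9.1% with the noncoding Gm26722 and 8.9% with Sync, also on the opposite strand. Aebp2 lost its call in 7 of 13 alternative fits, which were no filter on low counts, edgeR's exact test and those without P2- replicate 1, 2 or 3 or P2+ replicate 1 or 3, with adjusted p from 0.08695 to 0.2232. Mtf2 lost its call without P2+ replicate 1 (0.05941) or P2+ replicate 3 (0.05363). Phf19 was between 37.1 and 42.4 CPM in P2+ libraries and between 23.4 and 23.9 in P2- libraries. Phf19, Mtf2 and Phf1 are the 3 Polycomb-like genes, of which 2 rose. Phf1 was at -0.49 (SE 0.20, adjusted p = 0.092808 in edgeR's quasi-likelihood test) without the block and did not pass. Of the other canonical PRC1 subunits Scmh1 (0.67, SE 0.10) and Cbx6 (0.47, SE 0.11), a CBX paralog, rose, and the polyhomeotic gene Phc2 fell (-0.31, SE 0.07). Adjusted p for these genes in edgeR's quasi-likelihood test ran from 0.000497 for Phf19 to 0.042048 for Aebp2.

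Among 16 subunits of variant PRC1, which lack the CBX readers of canonical PRC1, 2 rose and 4 fell, again beside 20.1% and 17.0% of all genes. Auts2, a partner of Pcgf5, rose by 1.40 (SE 0.25) from about 2.33 to 6.15 CPM and was the one Polycomb gene past 2-fold, and Yaf2 rose by 0.54 (SE 0.09). Pcgf6 (-0.78, SE 0.15), E2f6 (-0.52, SE 0.07) and L3mbtl2 (-0.35, SE 0.08), fell, and so did Kdm2b (-0.24, SE 0.07), the CpG-binding subunit of PRC1.1. L3mbtl2 shares 17.2% of its exonic length with Chadl on the opposite strand. Pcgf6, E2f6 and L3mbtl2 are known as subunits of PRC1.6, to which Mga, Rybp and Yaf2 also belong. Mga (-0.22, adjusted p = 0.060494 in edgeR's quasi-likelihood test) and Rybp (-0.27, 0.209906) did not pass, and Yaf2 rose. This complex was picked out after the values were seen. Pcgf6 was between 13.6 and 18.6 CPM in P2+ and between 25.5 and 30.3 in P2- libraries, and E2f6 between 75.6 and 82.0 and between 109 and 118. Of 8 tested other PR-DUB genes, beside the same shares, Asxl2 fell (-0.40, SE 0.11, adjusted p = 0.018587 in edgeR's quasi-likelihood test) and 0 rose. Asxl2 lost its call without P2- replicate 1, P2- replicate 3, P2+ replicate 2 or P2+ replicate 3, with adjusted p from 0.05171 to 0.06156. Kdm2b lost its call in the exact test and without P2- replicate 1, P2+ replicate 1 or P2+ replicate 3, with adjusted p from 0.06595 to 0.09171. With the replicate block Foxk2 (0.19) and Mbd6 (0.23) were higher and Bap1 (-0.29) and Ogt (-0.42) lower among the PR-DUB genes, and among variant PRC1 subunits Bcorl1 (0.21) was higher and Mga (-0.22), Csnk2a1 (-0.19) and Csnk2b (-0.31) lower, with adjusted p of at most 0.03227 in edgeR's quasi-likelihood test. In that fit 11 of the 43 were higher and 13 lower, beside 25.9% and 24.8% of all genes.

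The H3K27 demethylase Kdm6b, which opposes PRC2, did not pass without the block (log2 fold change -0.79, SE 0.60). With the replicate number as a block it was lower in P2+ PreMegEs (-0.77, SE 0.09, adjusted p = 6.201e-06 in edgeR's quasi-likelihood test). It was at 255 CPM in P2- replicate 2 and at 144 CPM in P2+ replicate 2, against 35.2 to 73.6 CPM in the other libraries of these groups, and each P2+ library was below the P2- library of its number. The second replicates are the libraries with high immediate early genes, whose part in the level of Kdm6b was not tested.

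Set against WT PreMegEs, 4 of the 43 were higher in P2+ PreMegEs and 3 lower, beside 9.45% and 7.07% of all genes, and none reached 2-fold. P2- PreMegEs had 2 higher and 2 lower, beside 6.85% and 9.60% of all genes, of which Auts2 passed 2-fold (-1.32, SE 0.26), and KO PreMegEs had 2 higher and 3 lower, beside 6.18% and 8.76%, without a 2-fold change. Auts2 had a mean of 5.88 CPM in WT, 2.33 in P2- and 2.96 in KO PreMegEs. These comparisons share the WT libraries. Their counts among the 43 moved when 1 library at a time was left out. They were then 1 to 5 higher and 0 to 4 lower for P2+ against WT. For P2- they were 1 to 2 higher and 1 to 2 lower, and for KO 1 to 3 higher and 0 to 1 lower.

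**Figure D4:**
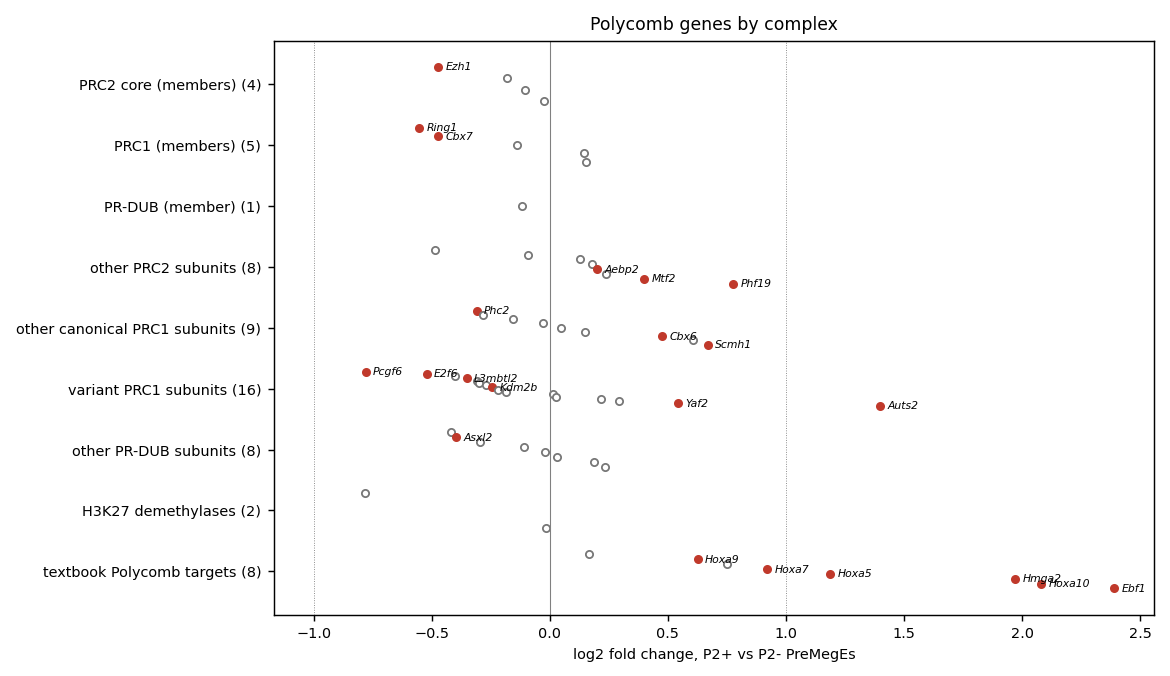
Log2 fold changes (x axis) of tested Polycomb genes and textbook targets between P2+ and P2- PreMegEs, in rows by complex with the number tested. Filled red points with names passed at an adjusted p under 0.05, open points did not, and dotted lines mark 2-fold. Called members lie left of 0, and called targets lie right of it.

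Known Polycomb targets were followed as a list of 12 genes, of which 8 were tested. In P2+ against P2- PreMegEs 6 of the 8 rose and 0 fell, with all 8 above 0 on the log2 scale, beside 20.1% and 17.0% of all genes, with a median log2 fold change of 1.05. Hoxb3 was also higher with the replicate block (0.77, adjusted p = 0.01836 in edgeR's quasi-likelihood test). Hoxa10 (2.08, SE 0.23), Hoxa5 (1.19, SE 0.26), Hoxa7 (0.92, SE 0.13) and Hoxa9 (0.63, SE 0.13) are transcription factors of the HoxA cluster that mark immature blood cells, and Hmga2 (1.97, SE 0.20) is a chromatin protein of fetal and immature cells. Hmga2 was at 24.5, 24.9 and 19.0 CPM in P2+ libraries and at 5.65, 7.15 and 4.78 CPM in P2- libraries. Ebf1, a B-cell factor, also passed (2.39, SE 0.83, adjusted p = 0.049670 in edgeR's quasi-likelihood test), but its groups overlapped, with 0.914 to 10.3 CPM in P2+ and 0.477 to 1.59 CPM in P2- libraries. Its call was lost without P2- replicate 2 (0.09899) or P2- replicate 3 (0.1489). Hoxa7 shares 20.4% of its exonic length with the antisense Hoxaas3.

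Other genes moved with the same groups, where 20.1% of all genes were higher and 17.0% lower. Of 9 stem cell genes 6 were higher in P2+ than in P2- PreMegEs, with sums of 769 to 833 CPM against 317 to 345. Of 25 proliferation genes 18 were higher and 0 lower, with sums of 5425 to 6025 CPM against 3940 to 4151. Of 14 lymphoid genes, a list that holds Ebf1, 9 were tested and 7 were higher, with sums of 219.5 to 356 CPM against 109 to 146, and 2 of the 14 were at 0 in all libraries. Neutrophil and monocyte genes summed to 313 to 438 CPM in P2+ and 64.0 to 164 CPM in P2- libraries, with 6 of 10 tested higher. Of 9 mast and basophil genes 3 were tested and all 3 were higher, with a median log2 fold change of 2.96 and sums of 84.3 to 137 CPM against 24.4 to 28.2, and 3 of the 9 were at 0 in all libraries. Fcer1a (7.63), 1 of the 3 tested, fell under the filter between P2- and WT PreMegEs. It was tested here through its level in P2+ libraries, so the filter helped to fix its direction. The part of these differences in the fall of Ezh1, Ring1 and Cbx7 and in the rise of the targets was not tested.

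Against WT, the targets Hmga2 (2.20, SE 0.32) and Hoxa10 (0.89, SE 0.17) were higher in P2+ PreMegEs and 0 were lower, beside 9.45% and 7.07% of all genes. In P2- PreMegEs 0 were higher and 4 lower, with Hoxa10 (-1.18, SE 0.27) and Ebf1 (-2.07, SE 0.61) past 2-fold, beside 6.85% and 9.60% of all genes. Hoxa10 lost its call without WT replicate 1 (-0.99, adjusted p = 0.06789 in edgeR's quasi-likelihood test). Ebf1 lost its call in 7 of 13 alternative fits, and its log2 fold change dropped to -1.32 (adjusted p = 0.2046) without WT replicate 2 and to -1.06 (0.2744) without replicate 2 of both groups. The other losses of Ebf1 were with the replicate block, with all 12 libraries in one fit, and without WT replicate 3, P2- replicate 2 or P2- replicate 3, with adjusted p from 0.06159 to 0.119. KO PreMegEs had 1 higher and 3 lower, beside 6.18% and 8.76% of all genes, with Hmga2 (1.33, SE 0.28) and Hoxb3 (-1.17, SE 0.28) past 2-fold, while no Polycomb member passed between KO and WT. Hoxb3 lost its call without KO replicate 1 (-0.92, adjusted p = 0.05179 in edgeR's quasi-likelihood test). It shares 52.9% of its exonic length with the antisense Hoxb3os. Reads of the gene and of its antisense partner could be split or mixed if the counting did not use the strand.

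Markers of cell types moved in these comparisons as well. Of all genes, 6.85% were higher and 9.60% lower in P2- against WT PreMegEs. These shares were 6.18% and 8.76% in KO and 9.45% and 7.07% in P2+ against WT PreMegEs. In P2- against WT PreMegEs, 6 of 8 tested lymphoid genes were lower (109 to 146 CPM summed against 274 to 306), 4 of 8 stem cell genes were lower (317 to 345 against 502 to 535), and 11 of 13 megakaryocyte genes were lower (197 to 268 against 722.5 to 821). In the same comparison 8 of 13 erythroid genes were higher (3188 to 3737 CPM against 1955 to 2208) and 9 of 25 proliferation genes lower (3940 to 4151 against 4262 to 4813). Of 9 tested neutrophil and monocyte genes 5 were lower there and 0 higher (64.0 to 164 CPM against 177 to 307.5). In KO against WT PreMegEs, 6 of 8 neutrophil and monocyte genes were lower (79.4 to 128 CPM against 177 to 307.5). Of 14 megakaryocyte genes, 8 were lower and 2 higher in KO PreMegEs (478 to 513 CPM against 722.5 to 821). Among 13 erythroid genes, 7 were higher in KO PreMegEs (2994 to 3367 CPM against 1955 to 2208). In P2+ against WT PreMegEs, 15 of 25 proliferation genes were higher (5425 to 6025 CPM against 4262 to 4813), as were 5 of 9 stem cell genes (769 to 833 against 502 to 535). There 8 of 14 megakaryocyte genes were also higher and 1 lower (1091 to 1619 CPM against 722.5 to 821), and 7 of 13 erythroid genes were lower and 1 higher (834 to 1075 against 1955 to 2208). Their part in the values of the members and the targets was not tested.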

How the data were processed

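RNA-Seq was carried out on PreMegEs of 4 groups with 3 libraries each. Per the study's methods and processing notes, the authors sequenced stranded poly(A) libraries as 75 base read pairs and aligned them to GRCm38 with Bowtie2, which does not split reads over junctions. The genes of Ensembl 76 were then counted with featureCounts. The deposited table holds raw counts for every gene and library, with no normalization. Whether the counting used the strand, and how reads with several alignments were treated, is not given in the sources used here.

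Everything else was computed from these counts. Groups were compared pairwise with edgeR 4.0.16 in R 4.3.3 (TMM, quasi-likelihood F-test on the group, Benjamini-Hochberg adjustment over all genes) on the genes that reached 1 CPM in 3 or more of the 6 libraries in the comparison. A gene was called at an adjusted p under 0.05, and 2-fold was added as an alternative. log2 CPM for correlations used a prior count of 2. RPKM used the exonic length over all transcripts in GENCODE vM21 (GRCm38), and promoter windows came from RefSeq, with a match for 10 of 10 members. The log2 ratio of Ezh2 to Ezh1 was taken after adding 0.5 to each count and tested with an exact permutation test. The scripts were tested on simulated data.

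Members and gene lists were chosen with earlier results of these data known, and all 10 members are named in every comparison. From the other lists, up to 3 called genes per direction are named for P2+ against P2-, and called genes past 2-fold elsewhere. Kdm2b, Kdm6b, Cdkn2a, Mga, Rybp, Phf1, the remaining called targets and the genes called only with the replicate block were added after their values were seen. Of the 3 genes most like each of Ezh1, Ezh2 and Ring1 by Pearson correlation, some are not reported here. The ranges of total counts of the groups overlapped (medians 11406899 to 13603031 counts), and a count of 0 allows up to 3 counts, or 0.208 to 0.286 CPM, for counting error only.

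P2+ and P2- libraries that carry one replicate number departed from their group means in the same genes (correlations across genes of 0.386, 0.572 and 0.405), so the numbers were taken to pair these libraries. In the other comparisons they did not all exceed 0.1, and the numbers were not taken as pairs. Alternatives were another scaling, no filter, DESeq2 1.42.0, edgeR's exact test, the replicate block, all 12 libraries in one fit and leaving out libraries. Small overlaps with genes on the opposite strand touch Eed (6.8% of its exonic length), Rnf2 (3.8%), Suz12 (3.6%), Asxl1 (2.6%), Ezh2 (2.6%) and Cbx7 (1.5%), and none touch Ezh1, Ring1, Bmi1 or Cbx8.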

Additional observations from a re-analysis of the deposited data

How the results depend on the processing

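No log2 fold change that passed changed its direction in any alternative, and Ezh1 kept its call in all 13 in both comparisons with P2+ PreMegEs. With 2-fold required, 0 members were lower in P2+ than in P2- or WT PreMegEs and 0 were higher in P2- than in WT PreMegEs. With the replicate block, 1 member, Rnf2, was higher in P2+ than in P2- cells, and Bmi1 was not called between P2- and WT, leaving 0, as with edgeR's exact test. The block gave 11 higher and 13 lower of the other Polycomb genes for P2+ against P2-, 1 lower for P2+ against WT, and 1 higher and 1 lower for P2- against WT, and it changed no other count of members or targets by over 1.5 times. The block called 6514 genes in place of 4762 for P2+ against P2-, 1901 in place of 2138 for P2+ against WT, 1469 in place of 2101 for P2- against WT and 2091 in place of 1910 for KO against WT.

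Leaving out 1 library at a time gave 1 to 2 lower members for P2+ against P2-, 1 to 2 lower for P2+ against WT (Ring1 passed without P2+ replicate 2, at -0.40 and an adjusted p of 0.04696 in edgeR's quasi-likelihood test), 0 to 1 higher for P2- against WT and 0 to 1 higher for KO against WT. For the other Polycomb genes it gave 1 to 5 higher and 0 to 4 lower for P2+ against WT, 1 to 2 higher and 1 to 2 lower for P2- against WT, and 1 to 3 higher and 0 to 1 lower for KO against WT. The log2 ratio of Ezh2 to Ezh1 in P2+ minus P2- stayed between 0.25 and 0.47. Of the fold changes of single genes, 117 of the alternative values lost their call, 3 gained one and 981 kept their side. The cause was not tested, beyond the fewer libraries and the added block themselves. Ebf1 fell under the filter in 4 fits that left out libraries, which gave no value.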
